A study of Mus musculus with 10 samples.

Results

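Matricellular proteins were examined here through 10 genes, chosen by name: the periostin family pair Postn and Tgfbi, the tenascins Tnc and Tnn, the thrombospondins Thbs1, Thbs2, Thbs3 and Thbs4, the fibronectin gene Fn1 and the SPARC-like gene Sparcl1. All 10 were found among the 25239 gene symbols of the count table, and all 10 passed the filter on low counts. RNA came from cells sorted out of the calvarial sutures, the growth seams of the skull, at postnatal day 7, in 5 DDR2-plus and 5 PSC libraries. Cells of both groups are labelled as calvarial stem cells of genotype WT, while the extraction protocol names Ctsk-Cre mice (n = 5). In such mice the recombinase follows the promoter of Ctsk, a protease gene of osteoclasts and periosteal cells. The name PSC is not spelled out in the labels, and no age, treatment or further allele sets the groups apart. The labels do not tie animals to libraries, so p-values measure the spread between these libraries, which may be technical.

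Matricellular proteins are secreted into the matrix but act on cells more than they bear load. They bind integrins, syndecans and growth factors and tune adhesion, collagen assembly and TGF-beta activity. In the skeleton periostin is known from the periosteum and the periodontal ligament, tenascins from the perichondrium, tendon and bone surface, and thrombospondins from cartilage, tendon and bone stroma, while fibronectin forms the first fibrils on which collagen is laid down.

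Totals were between 49843470 and 62021992 counts in DDR2-plus and between 43419129 and 58270419 in PSC. Levels are given as CPM, counts scaled by TMM factors to a common library size, and called differences passed edgeR's quasi-likelihood test at a Benjamini-Hochberg adjusted p under 0.05 over all 15416 genes tested. Ddr2, for which one population is named, was called lower in that population, at 112 ± 3.56 CPM in DDR2-plus, against 152 ± 10.7 CPM in PSC (adjusted p = 0.000165 in edgeR; SD over 5 libraries each), and the groups were taken as labelled. Ctsk stood at 107 ± 15.2 CPM in DDR2-plus, against 294 ± 15 CPM in PSC. All 7 chondrocyte markers were higher in DDR2-plus, with a summed level of 84297 to 117812 CPM there and 11354 to 26027 CPM in PSC. Of 7 osteoblast markers 5 were lower, with sums of 3435 to 7008 CPM in DDR2-plus and 11745 to 15023 CPM in PSC, and of 7 tendon and ligament markers 6 were lower and 1 was higher. Over all genes tested 20.1% were called higher and 19% lower. In bulk RNA of this kind, fewer cells of a type and less RNA per cell cannot be told apart.

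The members split into 3 sets. Thbs1 and Fn1 were higher in DDR2-plus, Postn, Tgfbi, Tnc, Tnn, Thbs2 and Thbs4 were lower, and Thbs3 and Sparcl1 were not called. Higher calls made up 2 of 10 members, against 20.1% of all genes, and lower calls 6 of 10, against 19%. Thus 8 of 10 members were called, against 39.1% of all genes tested (3096 higher and 2926 lower, or 5421 higher and 1538 lower with library size alone), and 71.1% of the 1355 genes that, like every member, averaged at least 100 CPM. A difference of at least 2-fold was called for 6 of 10, against 15.9% of all genes and 20.3% of those with at least 100 CPM. The groups did not overlap for 8 of 10 members, against 30.1% of all genes. The shares of 30.1%, 20.1% and 19% are over all genes tested, most of which averaged less than 100 CPM. The median log2 fold change of the members was -0.86, beside 0.04 over all genes tested.

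Together the 10 genes took a like share of all counts in both populations. Longer genes weigh more in such a share, so it is not a share of RNA molecules. Their summed share was 1.29%, 1.37%, 1.19%, 1.31% and 1.4% of all counts in DDR2-plus 1 to 5, against 1.06%, 1.31%, 1.27%, 1.23% and 1.12% in PSC 1 to 5, with overlapping ranges. Over the same libraries the genes of type I collagen, Col1a1 and Col1a2, made up 5.97% ± 1.46 of counts in DDR2-plus and 22.8% ± 0.832 in PSC. The makeup of the members' counts differed. Fn1 supplied 50.3% ± 0.886 of the members' counts in DDR2-plus and 26.2% ± 2.1 in PSC, and Thbs1 supplied 28.2% ± 2.31 in DDR2-plus and 8.34% ± 1.18 in PSC. Postn supplied 5.61% ± 1.82 in DDR2-plus and 29% ± 2.73 in PSC (SD, n = 5 each, for all shares; no test was made).

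**Figure D1:**
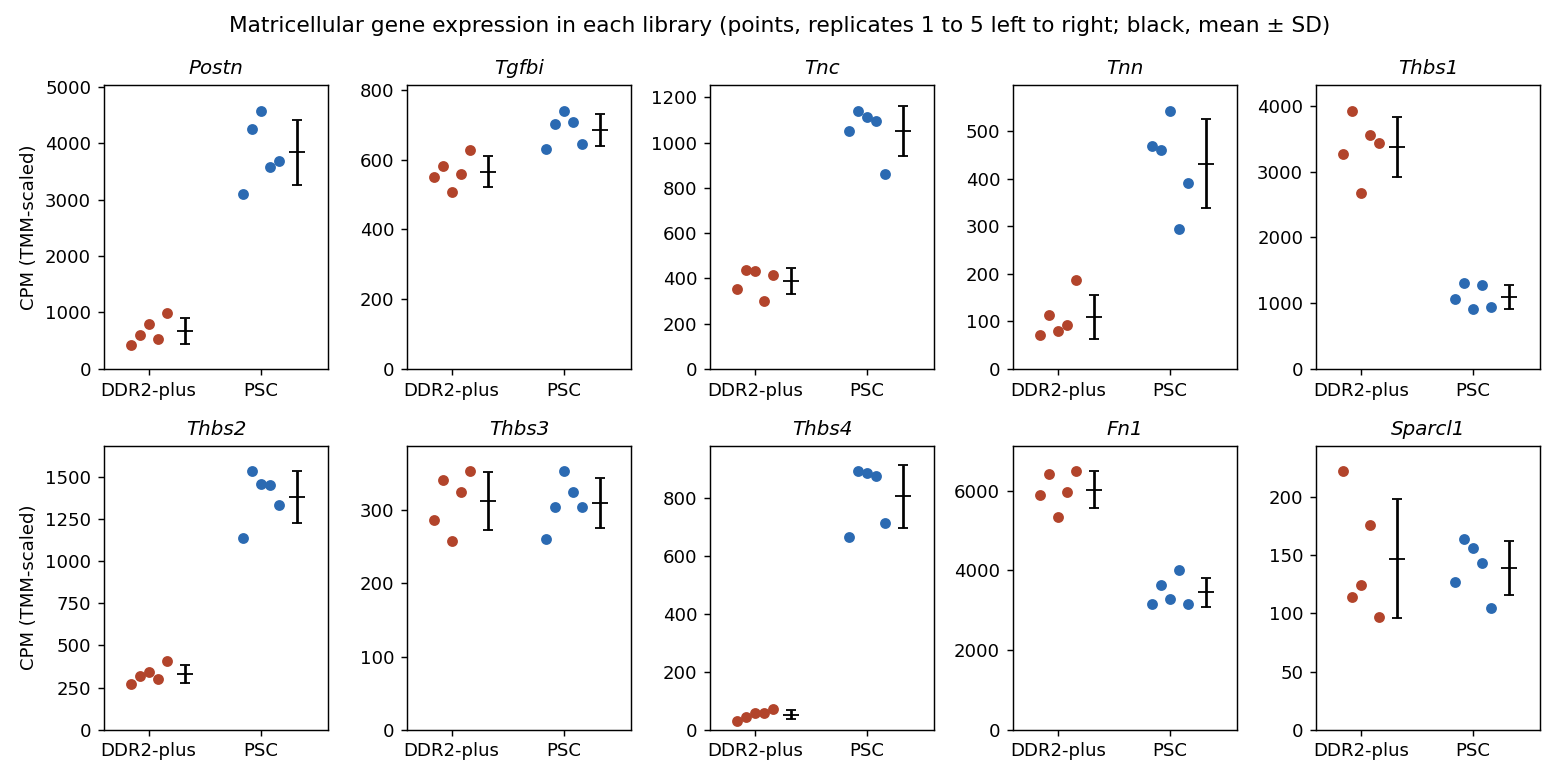
Expression of each member in CPM, scaled by TMM factors, in the 5 DDR2-plus libraries (left, red) and the 5 PSC libraries (right, blue), with the mean and SD in black. The groups do not overlap for 8 genes and overlap for Thbs3 and Sparcl1.

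Promoter sequence is shown for Postn, Tnc, Thbs2 and Thbs4, which are 4 of the 6 members lower in DDR2-plus. Their windows before an annotated start can thus be compared. Windows were found for 7 of the 10 members among the RefSeq promoters of GRCm38.p6, the build of mm10, and the 250 bases before a start were searched on both strands for TATAAA, for the AP-1 motif TGANTCA, for the CArG box of serum response factor, for CATCTG, an E-box form, and for GGAATG, the TEAD core. Capitals mark the matches, and each line runs 5′ to 3′ toward the start.
Postn: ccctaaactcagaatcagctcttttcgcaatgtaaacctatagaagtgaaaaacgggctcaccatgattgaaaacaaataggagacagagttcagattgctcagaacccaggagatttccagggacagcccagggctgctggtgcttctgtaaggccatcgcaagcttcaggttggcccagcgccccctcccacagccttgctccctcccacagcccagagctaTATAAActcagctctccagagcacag
Tnc: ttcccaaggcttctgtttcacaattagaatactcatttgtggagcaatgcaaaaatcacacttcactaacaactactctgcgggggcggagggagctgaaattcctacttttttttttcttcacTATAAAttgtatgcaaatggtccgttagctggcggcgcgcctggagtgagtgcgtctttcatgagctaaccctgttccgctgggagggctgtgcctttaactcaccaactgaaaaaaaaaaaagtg
Thbs2: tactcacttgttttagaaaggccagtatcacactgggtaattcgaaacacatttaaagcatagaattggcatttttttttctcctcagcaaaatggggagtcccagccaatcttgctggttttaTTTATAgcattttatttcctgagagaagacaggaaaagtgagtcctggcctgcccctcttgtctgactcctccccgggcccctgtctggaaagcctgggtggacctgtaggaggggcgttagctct
Thbs4: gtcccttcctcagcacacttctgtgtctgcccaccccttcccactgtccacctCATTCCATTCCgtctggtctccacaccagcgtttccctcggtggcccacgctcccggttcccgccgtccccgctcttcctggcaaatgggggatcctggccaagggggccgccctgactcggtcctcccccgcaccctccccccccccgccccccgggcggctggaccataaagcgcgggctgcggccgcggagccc
RefSeq gives Postn and Tnc a pair of windows each, and the one printed is that nearer the start of the GENCODE gene. The Postn window lies on the plus strand at chr3:54360857-54361106, and its TATAAA begins 26 bases before the start. The Tnc window (minus strand, chr4:64047016-64047265) and the Thbs2 window (minus strand, chr17:14694263-14694512) each hold TATAAA 126 to 121 bases before the start, in Thbs2 on the other strand. In the other Tnc window TATAAA lies 205 to 200 bases before the start, and the other Postn window holds none of the motifs, so these positions depend on the start chosen. The Thbs4 window (minus strand, chr13:92794819-92795068) holds a pair of GGAATG matches on the other strand that overlap by a base, and its GC share is 70.8%, against 52% for Postn, 46.8% for Thbs2 and 44.8% for Tnc. No AP-1 motif, CArG box or CATCTG was found in these 4 windows. Of the members whose windows are not printed, Tgfbi, also lower, had none of the motifs. Tnn, also lower, had GGAATG, and Thbs3, not called, had CATCTG. Over all 32851 windows of the same length, 12.4% held TATAAA, 12.6% GGAATG, 14.4% CATCTG, 6.75% TGANTCA and 1.47% the CArG box, so single matches are common and describe letters only.

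Periostin RNA was far lower in DDR2-plus. Postn (mm10 chromosome 3, 54361109 to 54391037, plus strand, 23 exon blocks), which encodes a secreted protein of collagen-rich tissue that binds integrins and helps cross-link collagen, had 428, 593, 798, 537 and 994 CPM in DDR2-plus 1 to 5, against 3098, 4248, 4574, 3581 and 3680 CPM in PSC 1 to 5. Every DDR2-plus library lay below every PSC library. Means were 670 ± 225 CPM in DDR2-plus, against 3836 ± 581 CPM in PSC, a 5.73-fold lower level in DDR2-plus (log2 fold change -2.52, SE 0.206; edgeR adjusted p = 1.79e-06). The DDR2-plus libraries differed 2.32-fold among themselves, a coefficient of variation of 33.6% that compares with 15.1% in PSC.

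Its paralog Tgfbi (chromosome 13, 56609523 to 56639562, plus strand), a TGF-beta-induced adhesion protein built like periostin from fasciclin domains, differed little. It had 549, 583, 508, 559 and 628 CPM in DDR2-plus 1 to 5, and 630, 703, 740, 708 and 646 CPM in PSC 1 to 5. The ranges touched but did not overlap, since the highest DDR2-plus library (628) lay just under the lowest PSC library (630). The gene was 1.21-fold lower in DDR2-plus (log2 fold change -0.28, SE 0.0725, 95% interval -0.45 to -0.11; edgeR adjusted p = 0.00861). Scaled by library size alone, which moves the median of all genes from 0.04 to 0.31, its log2 fold change was -0.01 and the call was lost (edgeR adjusted p = 0.929). A comparison within libraries avoids the scaling. The ratio of Postn to Tgfbi counts was 0.78 to 1.58 in DDR2-plus and 4.91 to 6.18 in PSC, a 4.89-fold lower ratio in DDR2-plus (log2 difference -2.29; two-sided exact permutation p = 0.00794, adjusted over 8 ratios 0.00907). With 5 libraries a group no smaller exact p is possible.

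Both tenascins were lower in DDR2-plus. Tnc (chromosome 4, 63959785 to 64047015, minus strand), which encodes tenascin-C, a large branched protein that weakens adhesion to fibronectin, had 354, 435, 431, 301 and 413 CPM in DDR2-plus 1 to 5 and 1050, 1141, 1112, 1097 and 860 CPM in PSC 1 to 5. The groups were apart, with PSC 5 the lowest of its group and still above every DDR2-plus library. Tnc was 2.72-fold lower (387 ± 57.8 CPM in DDR2-plus, against 1052 ± 112 CPM in PSC; log2 fold change -1.44, SE 0.112; edgeR adjusted p = 1.34e-06). An antisense gene shares 2.26% of its exonic bases, and the library kit does not mark strand.

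Tnn (chromosome 1, 160085029 to 160153580, minus strand), which encodes tenascin-W, a tenascin of bone and periosteum, was the more variable of the pair. It had 71.8, 113, 79.5, 92.5 and 187 CPM in DDR2-plus 1 to 5 and 469, 460, 543, 294 and 392 CPM in PSC 1 to 5. DDR2-plus 5 was high and PSC 4 low within their groups, but the groups did not overlap. The level was 3.97-fold lower in DDR2-plus (log2 fold change -1.99, SE 0.248; edgeR adjusted p = 4.59e-05). The ratio of Tnc to Tnn counts was 2.21 to 5.43 in DDR2-plus and 2.05 to 3.73 in PSC and did not pass (log2 difference 0.6; exact permutation test, two-sided p = 0.0794, adjusted over 8 ratios 0.0794). Without DDR2-plus 5 the log2 difference was 0.79 (adjusted exact permutation p = 0.0238), and without PSC 4 it was 0.75 (adjusted exact permutation p = 0.0397). Leaving out any other single library, it did not pass (adjusted exact permutation p of 0.0794 to 0.127), and it fell to 0.46 without DDR2-plus 3.

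The thrombospondins went in different directions. Thbs1 and Thbs2 form trimers, block the growth of vessels and bind CD36 and CD47, and Thbs1 also activates latent TGF-beta, while Thbs3 and Thbs4 belong with Comp to the pentameric subgroup of cartilage, tendon and bone. One trimer gene was higher in DDR2-plus and the other lower, and of the pentamer genes Thbs4 was lower and Thbs3 was not called.

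Thbs1 (chromosome 2, 118111876 to 118127133, plus strand) had 3268, 3929, 2675, 3565 and 3432 CPM in DDR2-plus 1 to 5, against 1060, 1303, 917, 1270 and 939 CPM in PSC 1 to 5. The lowest DDR2-plus library exceeded the highest PSC library by a wide margin. Means were 3374 ± 460 CPM in DDR2-plus, against 1098 ± 181 CPM in PSC, 3.07-fold higher in DDR2-plus (log2 fold change 1.62, SE 0.125; edgeR adjusted p = 1.26e-06). Thbs1 is known as a gene that serum induces within the early response. All 10 genes of an immediate early list, such as Fos and Egr1, were called higher in DDR2-plus too, against 20.1% of all genes. Their sums were 17896 to 21237 CPM in DDR2-plus and 8108 to 11744 CPM in PSC. The part of that response in the Thbs1 difference was not tested. Platelets store the protein, and the 6 platelet markers summed to 3.46 to 14.7 CPM in DDR2-plus and 6.67 to 10.4 CPM in PSC. Of the 3 that could be tested 0 were called higher and 1, Itga2b, lower. The part of platelets in the Thbs1 difference was not tested. Chondrocyte markers moved with Thbs1 as well, by the sums given above, and their part was not tested either.

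Thbs2 (chromosome 17, 14665500 to 14694235, minus strand) had 271, 320, 344, 301 and 410 CPM in DDR2-plus 1 to 5 and 1138, 1532, 1455, 1454 and 1332 CPM in PSC 1 to 5. All DDR2-plus libraries were below all PSC libraries. The level was 4.2-fold lower in DDR2-plus (329 ± 52.5 CPM in DDR2-plus, against 1382 ± 154 CPM in PSC; log2 fold change -2.07, SE 0.116; edgeR adjusted p = 2.99e-07). The opposite directions of these 2 genes showed inside each library. Thbs1 had 7.78 to 12.3 times the counts of Thbs2 in the DDR2-plus libraries and 0.63 to 0.931 times in the PSC libraries, a 13-fold shift (log2 difference 3.7; exact permutation test, two-sided p = 0.00794, adjusted 0.00907). Since Thbs1 was higher and Thbs2 lower in every DDR2-plus library than in every PSC library, this p was fixed in advance. Their exon lengths are 5848 and 5895 bases, so the ratio of counts is close to a ratio of levels per length.

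Thbs4 (chromosome 13, 92751590 to 92794818, minus strand), a thrombospondin of tendon and muscle attachment, had the largest fold change of the 10. Its values were 28.7, 44.2, 57.9, 58.7 and 69.8 CPM in DDR2-plus 1 to 5, against 663, 890, 885, 874 and 712 CPM in PSC 1 to 5. DDR2-plus 1 was the lowest library, and no DDR2-plus library came near the PSC range. The gene was 15.5-fold lower in DDR2-plus (51.9 ± 15.8 CPM in DDR2-plus, against 805 ± 109 CPM in PSC; log2 fold change -3.96, SE 0.215; edgeR adjusted p = 2.5e-07). Of the 7 tendon and ligament markers 6 moved with it. All 7 summed to 3233 to 4175 CPM in DDR2-plus and 4305 to 5265 CPM in PSC, but most of that is Fmod, the one called higher (3547 ± 364 CPM in DDR2-plus, against 2507 ± 321 CPM in PSC). The other 6 summed to 166 to 261 CPM in DDR2-plus and 2226 to 2568 CPM in PSC, among them Tnmd at 75.9 ± 23.1 CPM in DDR2-plus, against 1451 ± 99.4 CPM in PSC. Their part in the Thbs4 difference was not tested.

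Thbs3 (chromosome 3, 89215180 to 89226837, plus strand), which is widely made in the growing skeleton, had 286, 341, 258, 325 and 353 CPM in DDR2-plus 1 to 5 and 261, 305, 353, 325 and 305 CPM in PSC 1 to 5. The ranges were nearly the same. The log2 fold change was 0.01 (SE 0.1, 95% interval -0.22 to 0.24; edgeR adjusted p = 0.937), and with library size alone it was 0.28 and passed as higher (edgeR adjusted p = 0.0261). Its neighbour Mtx1, on the other strand, shares 8.56% of its exonic bases and stood at 35.6 ± 1.2 CPM in DDR2-plus, against 37.9 ± 2.26 CPM in PSC. Within libraries Thbs3 had 4.46 to 9.97 times the counts of Thbs4 in DDR2-plus and 0.343 to 0.428 times in PSC, a 16.2-fold shift (exact permutation test, two-sided p = 0.00794, adjusted 0.00907).

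**Figure D2:**
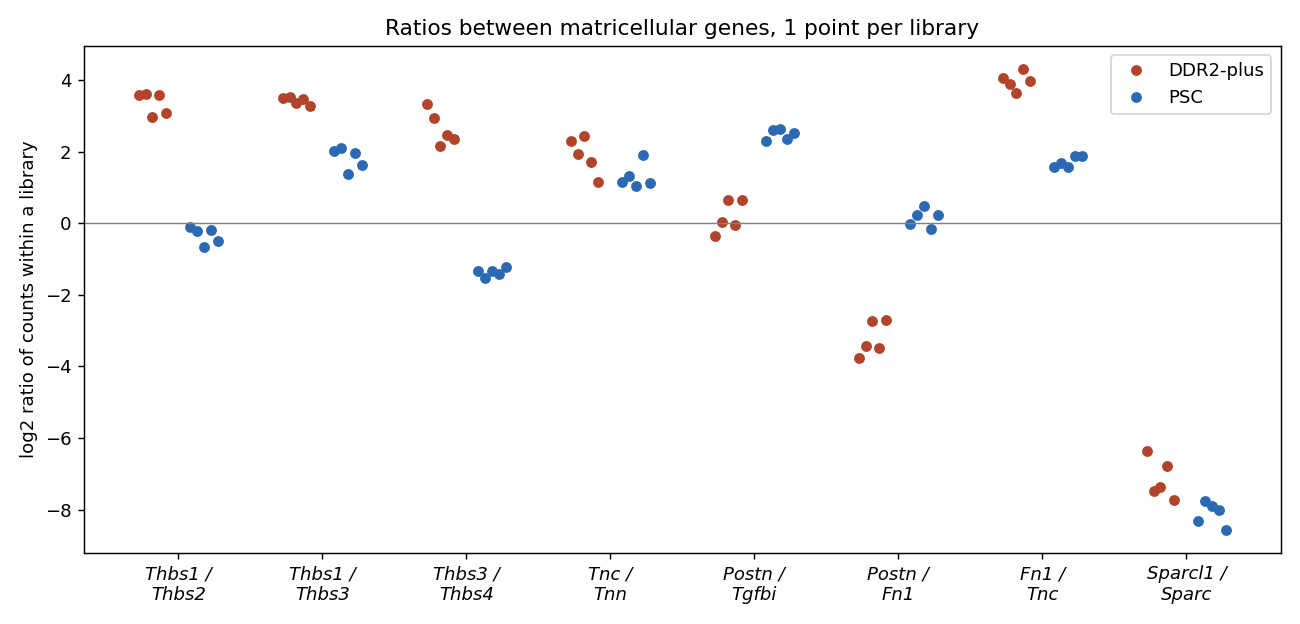
Log2 ratio of the counts of 2 genes within each library, for the 8 ratios tested, with DDR2-plus libraries in red at the left of each pair and PSC libraries in blue at the right. The groups are apart for Thbs1 over Thbs2, at 2.96 to 3.62 in DDR2-plus and -0.67 to -0.1 in PSC, and they overlap for Tnc over Tnn.

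Fibronectin RNA was higher in DDR2-plus. Fn1 (chromosome 1, 71585520 to 71653200, minus strand, 46 exon blocks), the adhesive glycoprotein bound by integrin alpha-5 beta-1, had 5893, 6408, 5323, 5967 and 6477 CPM in DDR2-plus 1 to 5 and 3150, 3623, 3287, 3999 and 3154 CPM in PSC 1 to 5. No DDR2-plus library came down to the PSC range. Fn1 was 1.75-fold higher in DDR2-plus (6014 ± 465 CPM in DDR2-plus, against 3442 ± 366 CPM in PSC; log2 fold change 0.8, SE 0.0827; edgeR adjusted p = 9.8e-06). Set against periostin, which binds fibronectin, the counts of Postn were 0.0727 to 0.153 times those of Fn1 in DDR2-plus and 0.895 to 1.39 times in PSC, a 10.4-fold lower ratio in DDR2-plus. Fn1 had 12.3 to 19.8 times the counts of Tnc in DDR2-plus and 2.96 to 3.67 times in PSC, a 4.78-fold higher ratio (exact permutation tests, two-sided p = 0.00794 for both ratios, adjusted 0.00907). Fn1 was already higher, and Postn and Tnc lower, in every DDR2-plus library than in every PSC library. The p of these ratios was thus fixed in advance and adds no support to those differences. Gene counts do not part the plasma and cellular splice forms of fibronectin.

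Sparcl1 (chromosome 5, 104079111 to 104113733, minus strand), which encodes hevin, a SPARC relative that astrocytes and vessel walls make and that promotes synapse formation in the brain, had 222, 114, 124, 176 and 97 CPM in DDR2-plus 1 to 5 and 127, 164, 156, 143 and 105 CPM in PSC 1 to 5. DDR2-plus 1 and 4 lay above every PSC library, the other 3 within or below the PSC range. The gene was not called (log2 fold change 0.08, SE 0.204, 95% interval -0.39 to 0.55; edgeR adjusted p = 0.802), and its log2 fold change was -0.13 without DDR2-plus 1 (edgeR adjusted p = 0.61). Of the 6 astrocyte markers Slc1a3, Fabp7, Aldh1l1 and Aqp4 were highest in those same libraries, DDR2-plus 1 and 4, and Gfap and Gja1 were not. Slc1a3, a glutamate transporter of astrocytes, had 188, 41, 55.9, 127 and 30.3 CPM in DDR2-plus 1 to 5, which is the same order of libraries as for Sparcl1, against 13.3 to 23.7 CPM in PSC, and Fabp7 had 109, 15.5, 37.5, 72.1 and 20.2 CPM in DDR2-plus and at most 2.3 CPM in PSC. The water channel gene Aqp4 was highest in DDR2-plus 4 and 1, at 75.5 and 45.2 CPM, and was at 0 in 4 of the 5 PSC libraries. Gfap had 11.5, 11.5, 10.8, 71.4 and 2.95 CPM in DDR2-plus 1 to 5 and at most 2.34 CPM in PSC. Fabp7, Aldh1l1, Aqp4 and Gfap were named here after their values were seen. Of 6 astrocyte markers 5 were called higher in DDR2-plus and 1 lower, with sums of 481 to 794 CPM in DDR2-plus and 646 to 859 CPM in PSC. The lower one was Gja1, a gap junction gene that bone cells also use, which made up 409 ± 38.8 CPM of the sum in DDR2-plus and 752 ± 79.6 CPM in PSC and was lowest among the DDR2-plus libraries in library 4, at 351 CPM. Endothelial markers summed to 25.3 to 50.8 CPM in DDR2-plus and 22 to 43.1 CPM in PSC. Of these markers 7 were tested, and 3 were called higher in DDR2-plus and 2 lower. Their part in the Sparcl1 level was not tested. Relative to its homolog Sparc, which was itself 1.91-fold lower in DDR2-plus, Sparcl1 counts were 1.95-fold higher in DDR2-plus (exact permutation test, two-sided p = 0.00794, adjusted 0.00907).

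**Figure D3:**
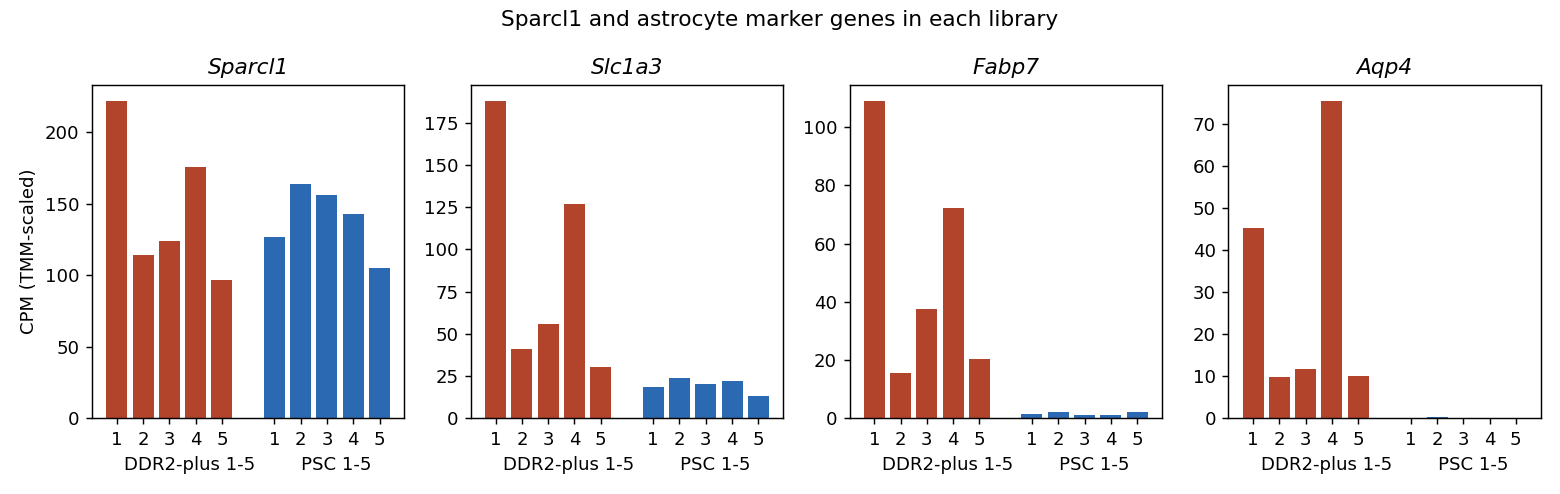
CPM, scaled by TMM factors, of Sparcl1 and of the astrocyte markers Slc1a3, Fabp7 and Aqp4 in each library, DDR2-plus 1 to 5 in red and PSC 1 to 5 in blue. DDR2-plus 1 and 4 are the highest DDR2-plus libraries for all 4 genes, and the PSC bars of Fabp7 and Aqp4 are near 0 while those of Sparcl1 are 105 to 164. Fabp7 and Aqp4 were picked after their values were seen. The astrocyte markers Gfap and Gja1, which did not share this pattern, and Aldh1l1, which did, are not shown.

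**Figure D4:**
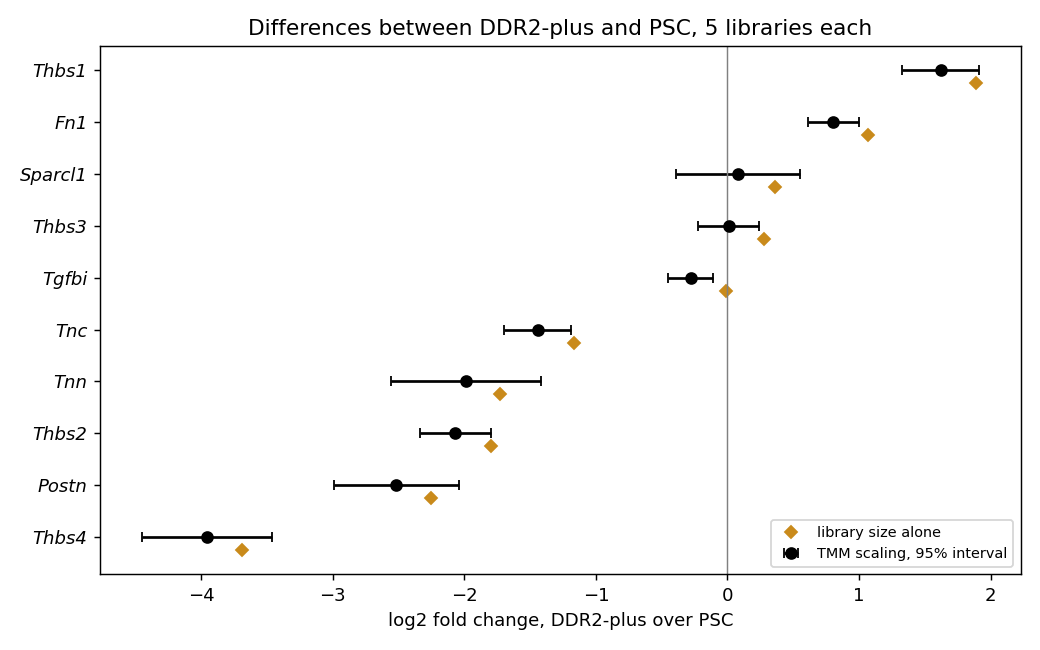
Log2 fold change of each member, DDR2-plus over PSC, with its 95% interval under TMM scaling (black) and the value with library size alone (yellow diamonds). With intervals that do not reach 0, 6 genes lie left of 0 and 2 lie right of it, and library size alone moves every gene to the right.

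Per kilobase of exon, the scale on which genes can be ranked against each other, the order of levels changed between the populations. In DDR2-plus Fn1 led at 709 ± 54.8 CPM per kb, ahead of Thbs1 at 577 ± 78.7, with ranges that overlapped. Tgfbi at 208 ± 16.3 and Postn at 204 ± 68.5 CPM per kb followed and could not be ordered. Thbs3 came next at 98 ± 12.4 CPM per kb, then Thbs2, Sparcl1 and Tnc at 55.8 ± 8.9, 53.1 ± 18.6 and 49.8 ± 7.44 CPM per kb with overlapping ranges, and last Tnn and Thbs4 at 18.7 ± 7.97 and 16.2 ± 4.95 CPM per kb. In PSC Postn stood alone at the top with 1166 ± 177 CPM per kb, ahead of Fn1 at 406 ± 43.1. Tgfbi, Thbs4, Thbs2 and Thbs1 formed a run of neighbours with overlapping ranges at 253 ± 16.9, 252 ± 33.9, 234 ± 26.1 and 188 ± 31 CPM per kb. Tnc followed at 135 ± 14.4 CPM per kb, its lowest library level with the highest of Thbs3 at 111, and Thbs3, Tnn and Sparcl1 closed the order at 97.1 ± 10.5, 74.2 ± 16.1 and 50.4 ± 8.54 CPM per kb (SD, n = 5 each).

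**Figure D5:**
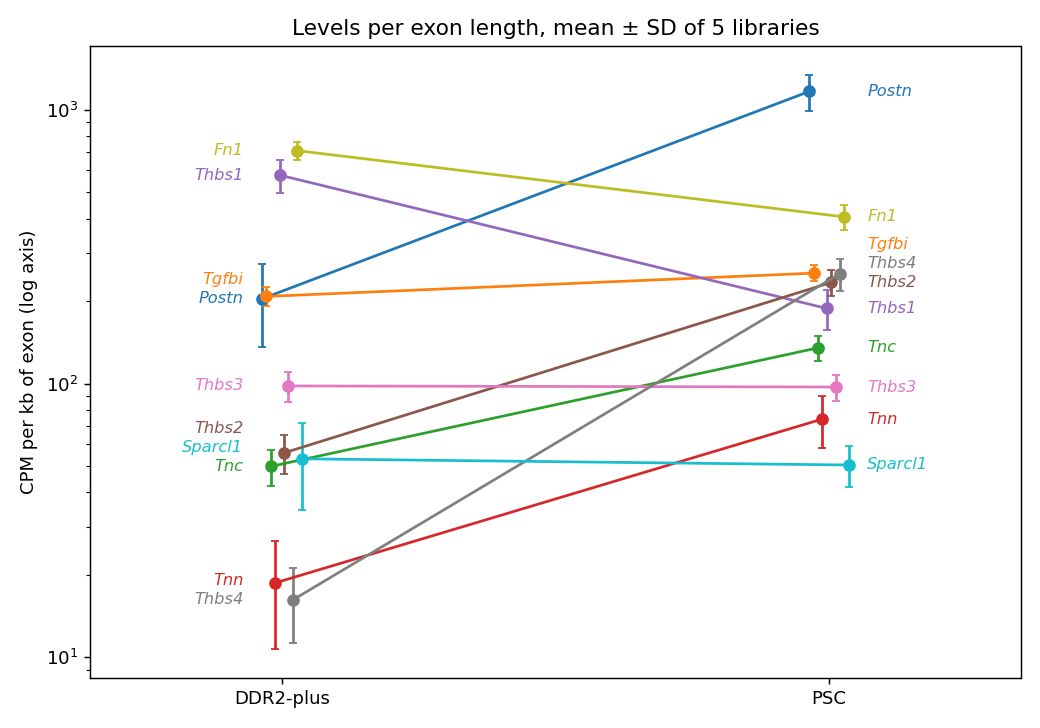
Mean level of each member in CPM per kilobase of exon (log axis) with SD over 5 libraries, in DDR2-plus at the left and PSC at the right. Fn1 and Thbs1 head DDR2-plus at 709 and 577 CPM per kb, Postn heads PSC at 1166, and the steepest line is that of Thbs4, at 16.2 in DDR2-plus and 252 in PSC.

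Variation among the DDR2-plus libraries was shared by some members. Postn and Thbs2 ordered the 5 DDR2-plus libraries alike, with library 1 lowest, then 4, 2, 3 and 5, and Tnn and Thbs4 were also lowest in library 1 and highest in library 5. Col1a1 was lowest in DDR2-plus 1 as well, and highest in DDR2-plus 3. Tgfbi, Thbs3 and Fn1 shared another order, with library 3 lowest and library 5 highest. Coefficients of variation in DDR2-plus were 30.5% to 42.6% for Postn, Tnn, Thbs4 and Sparcl1 and 7.73% to 16% for the other 6 members, while in PSC all 10 lay between 6.68% and 21.7%.

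Among the 8876 genes with a mean of at least 10 CPM, those with the most similar profile over the 10 libraries were looked up for each member, by the root mean square difference of log2 CPM after centring each gene on its own mean. Nearest to Postn were Lrrc15 (0.12 log2 units), Aspn (0.12) and Col14a1 (0.15), which encode matrix and surface proteins of fibroblastic cells. Their log2 fold changes were -2.37, -2.7 and -2.32, beside -2.52 for Postn, so such a profile largely follows the group difference. Nearest to Tnc were Cdh11 (0.12), Wif1 (0.12) and Adamts14 (0.14), and nearest to Thbs2 were Pamr1 (0.13), Smtnl2 (0.16) and Crip1 (0.17). Thbs4 was followed most closely by Cilp (0.25), Tnmd (0.31) and Chodl (0.36), of which Tnmd and Chodl are on the tendon and ligament marker list. For Tnn the list was Smtnl2 (0.25), Itih5 (0.33) and Thbs2, another of the 10 members (0.35). Thbs1 had Insig1 (0.1), Ldlrad3 (0.11) and the cartilage collagen gene Col11a2 (0.12) beside it, and Fn1 had Bbx (0.08), Specc1l (0.09) and Sat1 (0.09). Tgfbi and Thbs3 were nearest to genes that differed little, Ccpg1, Mia3 and Gga1 for Tgfbi (0.06 to 0.07) and Nr3c1, Snx33 and Igdcc4 for Thbs3 (0.08 to 0.09), and Sparcl1 was nearest to Morc3, H2az1 and H1f10 (0.2 to 0.22). Among the 10 members the closest pairs were Tgfbi with Thbs3 (0.17) and Postn with Thbs2 (0.31).

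Related matricellular and matrix glycoprotein genes also went both ways. Of 20 such genes 19 could be tested, and 5 were higher, 8 lower and 6 not called, with a median log2 fold change of -0.38. Over all genes 20.1% were called higher and 19% lower. With library size alone 8 genes of this list were higher. Comp, the remaining thrombospondin and a cartilage protein, was 6.32-fold higher in DDR2-plus (4439 ± 481 CPM in DDR2-plus, against 702 ± 156 CPM in PSC), Edil3, an integrin ligand, 4.29-fold higher and Mfge8, another, 1.99-fold higher. Spp1, which encodes osteopontin, was 5.42-fold lower, Tnxb, the gene of tenascin-X, 4.38-fold lower (31.7 ± 18.4 CPM in DDR2-plus, against 139 ± 40.2 CPM in PSC), and Mfap2, a microfibril gene, 3.71-fold lower (adjusted p at most 0.000417 in edgeR for all 6). Spp1 shares 18.8% of its exonic bases with another annotated gene. Smoc2 and Emilin1, at 755 and 741 CPM in DDR2-plus and 728 and 668 CPM in PSC, were not called. The remaining tenascin gene, Tnr, was too low to test.

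Of 22 genes for receptors of these proteins 21 could be tested, and 2 were higher, 10 lower and 9 not called, with a median of -0.43, beside 20.1% higher and 19% lower over all genes. With library size alone 5 were higher and 7 lower. The number higher was 4 with limma-voom and 1 without any one of DDR2-plus 1, 2, 4 or 5. Sdc4, the syndecan that binds fibronectin and tenascin-C, was 4.4-fold higher in DDR2-plus (806 ± 130 CPM in DDR2-plus, against 183 ± 39.3 CPM in PSC; edgeR adjusted p = 1.18e-06). The other higher gene, Calr, was 1.12-fold higher (edgeR adjusted p = 0.0303), and its call was lost without any one of DDR2-plus 1, 2, 4 or 5 or PSC 2 or 3 (edgeR adjusted p of 0.0529 to 0.0804). Ptprz1, a phosphatase that binds tenascin-C, was 2.86-fold lower, Itgb3, the beta-3 integrin chain, 2.66-fold lower and Egfr 2.04-fold lower (adjusted p at most 0.000233 in edgeR for all 3). Itga5, the fibronectin receptor chain, had 109 ± 13.8 CPM in DDR2-plus, against 100 ± 10.2 CPM in PSC, and Itga9, a tenascin-C receptor chain, 26.2 ± 4.55 CPM in DDR2-plus, against 34.6 ± 8.06 CPM in PSC. Neither was called. The integrin chains Itgb1 and Itgb5, named here after their values were seen, were 1.5-fold and 1.65-fold lower.

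All 19 matrix partners tested were called, 3 higher and 16 lower with a median of -1.35, against 39.1% called over all genes and 71.1% of the genes that averaged at least 100 CPM. Col3a1, Col1a1 and Col1a2, the chains of the interstitial collagens that periostin and thrombospondin-2 bind or help organize, were 4.8-fold, 4.74-fold and 4.47-fold lower in DDR2-plus, while Tgm2, a transglutaminase that cross-links fibronectin, was 2.01-fold higher and Ccdc80, an adhesion protein, 1.71-fold higher (adjusted p at most 1.3e-05 in edgeR for all 5). Tgm2 shares 22.6% of its exonic bases with other genes. Hspg2, the gene of perlecan, was 1.3-fold higher (edgeR adjusted p = 0.0296) and lost its call without any one of PSC 1, 2 or 5 or DDR2-plus 2, 4 or 5 (edgeR adjusted p of 0.0547 to 0.0862). Of 16 genes of the adhesion complex inside the cell 0 were higher, 6 lower and 10 not called in edgeR, with a median of -0.21. The 6 called of 16 compare with 39.1% called over all genes, 20.1% higher and 19% lower. Ilk, named here for its overlap and among the 6 lower, shares 98.7% of its exonic bases with genes on the other strand. The library kit does not mark strand, so its count may include theirs. Of these 16 genes edgeR also had 0 higher at an unadjusted p under 0.05, and so did DESeq2 and limma-voom at an adjusted p under 0.05. Tns1, which links integrins to actin at fibronectin-rich adhesions, was 2.42-fold lower (edgeR adjusted p = 3.69e-06). Under library size alone 1 gene of that list was higher and 1 lower.

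Regulators of TGF-beta signalling and transcription split too. Of 23 such genes 6 were higher, 10 lower and 7 not called, with a median of -0.19. Over all genes 20.1% were called higher and 19% lower. Scx, a tendon factor, stood at 9.66 ± 2.21 CPM in DDR2-plus, against 105 ± 11.6 CPM in PSC, 10.9-fold lower. Ltbp1, which holds latent TGF-beta in the matrix, was 2.59-fold lower and Twist1, a factor known to act on Postn, 2.48-fold lower. Smad7, an inhibitor that TGF-beta induces, was 2.3-fold higher and Srf, the factor that binds CArG boxes, 1.73-fold higher (adjusted p at most 0.00101 in edgeR for all 5). Tgfbr2 and Klf4 were not called, at 241 and 195 CPM in DDR2-plus and 274 and 173 CPM in PSC. Of 20 matrix proteases and inhibitors 2 were higher, 14 lower and 4 not called, with a median of -0.74, beside the same shares over all genes. Mmp9 and Htra1 were 2.77-fold and 1.52-fold higher, and Adamts2, which trims procollagen, Ctsk and Adamts4, an aggrecanase, were 4.01-fold, 2.74-fold and 2.6-fold lower (adjusted p at most 0.000422 in edgeR for all 5). Adamts1, a protease that cuts thrombospondins, had 235 ± 33 CPM in DDR2-plus, against 230 ± 21 CPM in PSC and was not called.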

How the data were processed

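RNA of sorted calvarial suture cells was sequenced in 10 libraries, 5 DDR2-plus and 5 PSC. Per the labels' protocols, small RNA inputs were made into cDNA by template switching and cut into libraries by a transposase, so that strand is not marked. The deposited values are raw counts per gene symbol, as the whole numbers in the file show; the build mm10 and DESeq are named per the submitters' processing notes, while the aligner, the counter and the gene models were not given in the sources used here. Amplified reads are not independent molecules.

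The 10 members and all lists were chosen with earlier results of these data known. The whole table was fitted with edgeR 4.0.16 (R 4.3.3; TMM, filterByExpr, quasi-likelihood test, Benjamini-Hochberg over all genes), DDR2-plus over PSC. Each standard error is the fold change over the root of its F statistic, and 95% intervals use a t distribution with 8 degrees of freedom. Ratios of counts (pseudocount 0.5) were tested by exact permutation over libraries. No list was tested as a set. Coordinates and exon lengths are from GENCODE M21 (mm10), promoters from RefSeq (GRCm38.p6). From each list the text names the 3 largest called rises and falls that reach 10 CPM on average in either group and the 2 most expressed genes not called, and any other name is stated. A gene that this rule names is not reported here. The fit was run on simulated counts in which few genes changed, up or down at random. That run does not check the choice of scaling. Libraries of a group differed beyond sampling noise (chi-square per degree of freedom of at least 39.2). Alternatives were DESeq2 1.42.0, limma-voom (limma 3.58.1), other scalings and filters, a replicate block and leaving out each library.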

Additional observations from a re-analysis of the deposited data

How the results depend on the processing

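Of 18 alternative settings of the gene test, 17 left 2 members called higher and 6 lower. Scaling by library size alone gave 3 higher and 5 lower, because Thbs3 passed as higher (log2 fold change 0.28) and Tgfbi lost its call (log2 fold change -0.01). That scaling also gave 5421 genes higher and 1538 lower over all genes. Leaving out each library gave 2594 to 3191 genes higher and 2582 to 2887 lower. With the library number as a replicate block, Postn had a log2 fold change of -2.57 and Sparcl1 of 0.03, and no member changed its call. Same-numbered libraries correlated by 0.0289 to 0.0532 in their deviations from the group means. Each DDR2-plus library correlated best with the PSC library of its own number, so a pairing by number is possible. Sample titles number the libraries of both groups alike after the prefix Sut, without saying what the number stands for. The labels do not tie animals to libraries, and the main tests took the libraries as unpaired. In the ratios of counts the block left log2 differences of 3.7 (Thbs1 over Thbs2), 1.61 (Thbs1 over Thbs3), 4.02 (Thbs3 over Thbs4), -2.29 (Postn over Tgfbi), -3.38 (Postn over Fn1), 2.26 (Fn1 over Tnc) and 0.96 (Sparcl1 over Sparc) without a call, in a test whose smallest exact p, 0.0625, cannot pass. Leaving out each library, the log2 difference of Tnc over Tnn lay between 0.46 and 0.79. Of 738 refits of 41 named list genes, 707 kept their call and direction, 14 lost the call, 17 gained one and 0 reversed. Which of the scalings is closer to the cells' RNA content cannot be read from counts. Depth was no limit for the members, whose lowest count in a library was 1618.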

Other observations

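The other named genes of the adhesion complex differed less than Tns1. Tns3 was 1.33-fold lower in DDR2-plus (40.5 ± 2.48 CPM in DDR2-plus, against 53.8 ± 6.06 CPM in PSC; n = 5 each, SD; adjusted p = 0.00313 in edgeR) and Vcl, which shares 39.7% of its exonic bases with a neighbour, 1.27-fold lower (edgeR adjusted p = 0.00365); both lost the call with library size alone (edgeR adjusted p of 0.261 for Tns3 and 0.447 for Vcl). Parva and Actn4 were at 146 and 299 CPM in DDR2-plus and at 166 and 328 CPM in PSC without a call. The collagenase gene Mmp13, at 1035 ± 199 CPM in DDR2-plus, against 1368 ± 284 CPM in PSC, was not called (edgeR adjusted p = 0.0521), and over the alternatives its adjusted p lay between 0.0109 and 0.524.

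The remaining marker lists gave the following sums and calls, beside 20.1% called higher and 19% called lower over all genes tested. Macrophage and leukocyte markers summed to 15.5 to 32.8 CPM in DDR2-plus and 9.66 to 20.9 CPM in PSC, with Lyz2 at 11.5 CPM in DDR2-plus, against 5.98 CPM in PSC. Skeletal muscle markers summed to 22.1 to 55.2 CPM in DDR2-plus and 10.2 to 29.2 CPM in PSC. Neuron markers summed to 51.6 to 143 CPM in DDR2-plus and 6.78 to 12.8 CPM in PSC, and 6 of 7 were called higher. Schwann cell markers summed to 718 to 1157 CPM in DDR2-plus and 395 to 441 CPM in PSC, with 5 of 6 called higher. Pericyte and smooth muscle markers summed to 743 to 938 CPM in DDR2-plus and 504 to 568 CPM in PSC, where Cspg4, which chondrocytes also express, made up 614 CPM in DDR2-plus, against 317 CPM in PSC; 2 of 7 were called higher and 4 lower.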
